A study of Mus musculus with 4 samples.

Results

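The genes described here are 38 imprinted genes of the mouse, taken by symbol from an RNA sequencing table of spermatocyte suspensions with 24388 gene symbols. All 38 were found in the table. By the allele that somatic tissues use, 24 are paternally expressed and 14 maternally expressed, and they lie in 18 clusters or single loci, with 17 of the genes on chromosome 7. Libraries came from C57BL/6 mice labelled 21 dpc, an abbreviation that the labels leave unexplained: 2 carried the genotype label control and 2 the label Np95 knock out. The table's column names write the knockout as Np95cKO, and the labels give neither the allele and the driver of the deletion nor the animal behind each replicate. The p-values below therefore reflect library-to-library spread alone, part or all of which may be technical. Tubules had been cut up, digested with accutase and strained, with no sorting step named, so other cells of the testis can be present.

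Imprinted genes are transcribed mainly from a single parental allele, which is chosen by DNA methylation laid down in the egg or in male germ cells. After fertilization those marks must be copied at each round of replication. UHRF1, the protein called Np95 in the labels, recognises hemimethylated DNA and brings DNMT1 to it. In the male germ line the inherited marks are erased and a paternal pattern is set on both alleles well before meiosis, so "paternally" and "maternally expressed" name the allele used in somatic tissues and not a measurement in spermatocytes. Several of the genes act on growth through insulin-like growth factor 2, its receptor and the cell cycle, and several are noncoding RNAs that silence their neighbours.

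Values are RPKM, read counts scaled to gene length and library depth, and are given for each library in the order replicate 1, replicate 2. Folds are ratios of group means, and SE is the standard error of the log2 fold change. Low values fell into even steps, as counted reads or pairs would, when the length was taken as the whole gene span with introns. By that step the depth was about 5820000 and 12840000 steps for the control libraries and 11130000 and 4810000 for the knockout libraries. A long intron thus lowers a gene's RPKM, and levels are compared below only within a gene. Uhrf1 had 3.11 and 3.29 RPKM in the control libraries and 1.87 and 1.48 in the knockout libraries (log2 fold change -0.65, SE 0.10, limma adjusted p = 0.0031). Scaling to an equal RPKM sum made that change -0.37. Which exons were deleted is not named in the labels, so reads outside them may remain in these values. Summed marker levels moved with genotype. The 15 Sertoli cell markers summed to 132 and 154 RPKM in the control and 375 and 452 in the knockout, and 13 of 13 tested rose, 3 of which passed the filter only through the knockout. Summed Leydig markers were 2.96 times, peritubular markers 2.34 times, macrophage markers 2.52 times, endothelial markers 2.60 times and fibroblast markers 4.10 times the control level, and 0 of the markers of these lists were at 0 in all 4 libraries. Summed spermatocyte markers fell from 1228 and 1211 RPKM to 595 and 477, and Hspa2 alone held 693 and 682 of the control sums. Of the 10 spermatocyte markers 7 fell, Sycp1 and Mybl1 rose by 0.45 and 0.35 on the log2 scale, and Sycp3 was not called. All 4 spermatid markers tested were lower. Over all 9099 genes tested, 43.3% rose and 30.5% fell. Summed spermatogonia markers were 0.964 times the control level with Id4, which fell from 39.0 and 41.7 RPKM to 24.6 and 21.6, and 2.61 times without it. Of the 11 spermatogonia markers, 9 lay higher in both knockout libraries and 1 lower, where 46.1% of all symbols lay higher and 21.9% lower. The part of this shift in the imprinted genes was not tested, and in such bulk samples fewer cells of a type and less RNA per cell cannot be told apart.

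**Figure D1:**
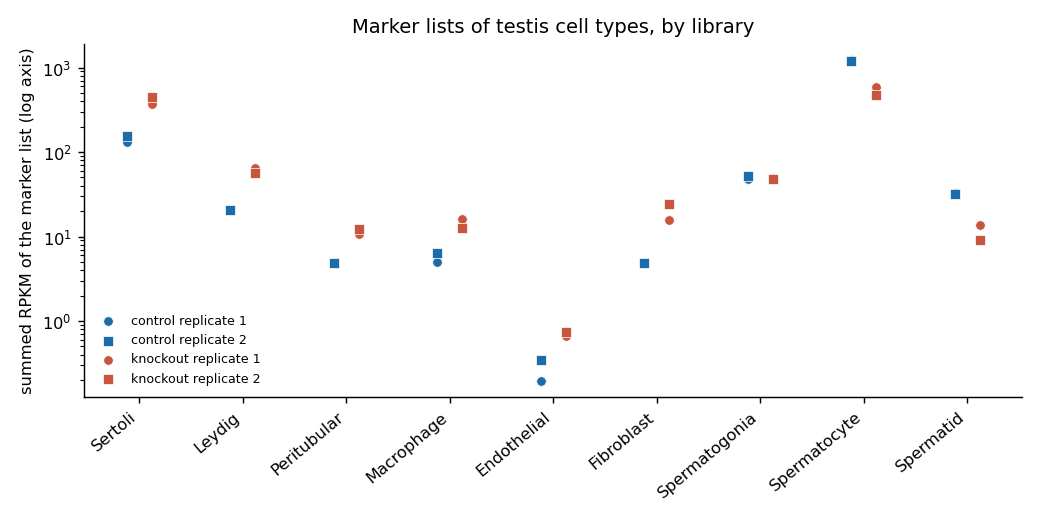
Summed RPKM of each marker list (log axis) in the 2 control libraries (blue) and 2 knockout libraries (red), with circles for replicate 1 and squares for replicate 2. Lists of somatic testis cells are higher in both knockout libraries, and the spermatocyte and spermatid lists are lower.

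Most imprinted genes were higher in the knockout libraries. Over all 38, both knockout values lay above both control values for 27 genes and below them for 6, and the groups overlapped for 5. Among all 24388 symbols the corresponding shares were 46.1% higher and 21.9% lower. Those symbols include 3180 at 0 in all 4 libraries, which could only overlap, while 0 of the 38 were so, and this lowers both shares. The genes with 1 RPKM or more in at least 2 libraries numbered 15, and the other 23 were low. Of the 15, 11 rose, 3 fell and 1 was not called by limma on log2(RPKM + 1) with a Benjamini-Hochberg adjusted p under 0.05, where 43.3% of the 9099 genes tested rose and 30.5% fell. Their median log2 fold change was 0.77, against 0.14 over all genes tested. Igf2, H19, Ascl2, Dlk1 and Peg3 were below 1 RPKM in both control libraries and entered only through the knockout, so they could only be higher. Of the 10 genes at 1 RPKM or more in both control libraries, 6 rose, 3 fell and 1 was not called. Among these, Mirg was below 1 RPKM in both knockout libraries and entered only through the control, so it could only be lower. With no filter, the median of all 38 was 0.24 against 0.01 over all genes.

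The paternally expressed genes that passed the filter numbered 8, of which 6 rose and 2 fell, with a median log2 fold change of 0.97. The maternally expressed genes that passed numbered 7, of which 5 rose, 1 fell and 1 was not called, with a median of 0.76. Over all genes tested at this filter, 43.3% rose and 30.5% fell, with a median of 0.14. The paternally expressed Igf2, Dlk1 and Peg3 and the maternally expressed H19 and Ascl2 could only be higher, and the counts and medians include them. The paternally expressed class thus held rises and falls, while the only maternally expressed fall was that of Mirg. Mirg passed the filter only through the control and so could only be lower. The maternally expressed Cdkn1c, Gnas and Blcap passed the filter in both groups and rose, and Ube3a, which also did, was not called. The difference between the classes was not tested. After scaling to an equal RPKM sum, 15 of 17 genes rose and 1 fell. Of all 9345 genes tested, 60.5% rose and 17.8% fell, and their median moved to 0.46. The filter followed this scaling, which raised the knockout values and lowered the control values, and Mirg no longer passed. The imprinted genes that the scaling brought in, and Ube3a, passed only through the knockout and could only be higher, as did Igf2, H19, Ascl2, Dlk1 and Peg3.

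**Figure D2:**
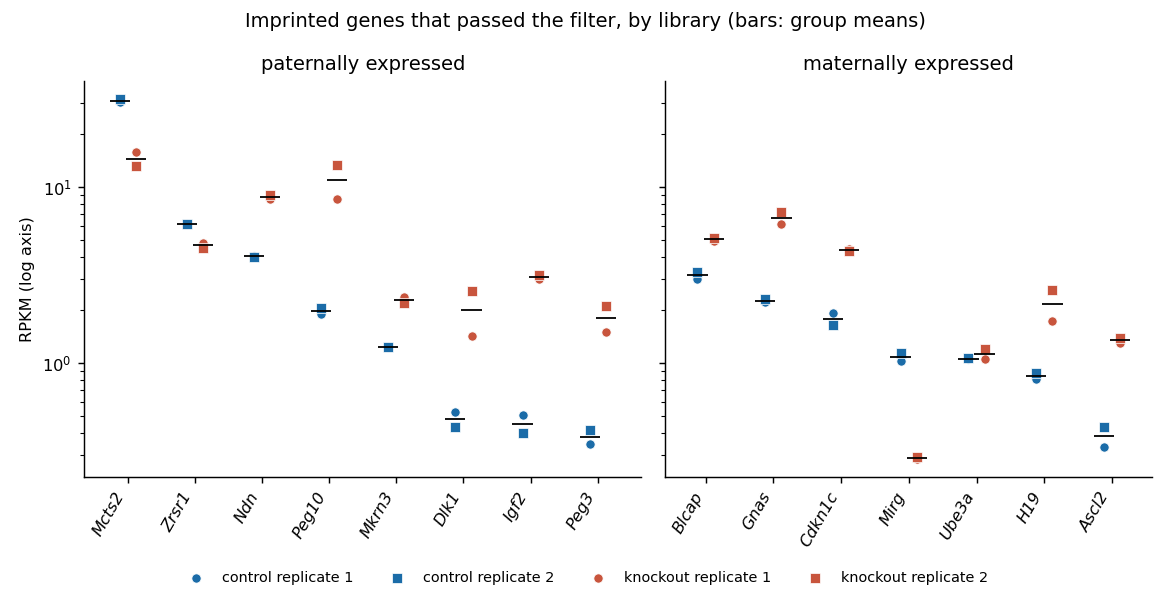
RPKM (log axis) of the 15 imprinted genes that passed the filter, in control (blue) and knockout (red) libraries, with a bar at each group mean. Mcts2, Zrsr1 and Mirg lie lower in the knockout, Ube3a overlaps between the groups, and the other 11 lie higher.

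At the H19-Igf2 locus both genes were higher, and both passed the filter only through the knockout. Igf2, the paternally expressed fetal growth factor, had 0.505 and 0.399 RPKM in the control libraries and 3.01 and 3.14 in the knockout libraries. Its log2 fold change was 1.49 (SE 0.08, limma adjusted p = 0.0014), a 6.80-fold higher mean. H19, a maternally expressed noncoding RNA that shares enhancers with Igf2, had 0.809 and 0.876 RPKM in the control and 1.73 and 2.60 in the knockout. Both knockout values of H19 were above both control values, and the change was 0.77 on the log2 scale (SE 0.14, adjusted p = 0.0064). The receptor that clears IGF2 from the cell surface, Igf2r, was low, with 0.257 and 0.224 RPKM against 0.948 and 1.01. Grb10, an adaptor that restrains insulin and IGF signalling, was low as well, at 0.276 and 0.330 RPKM against 0.450 and 0.518.

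Other genes of IGF signalling were mostly low. Of 16 listed, 4 passed the filter and all 4 rose, where 43.3% of all genes tested did. Igfbp3 and Igfbp2 were below 1 RPKM in both control libraries and could only be higher. Igfbp3, a binding protein that carries IGFs, had 0.195 and 0.333 RPKM in the control and 2.87 and 3.69 in the knockout (log2 fold change 1.76). Igfbp4, Igfbp6 and Igfbp2, of the same binding protein family, changed by 1.09, 0.96 and 0.68. These are genes of somatic cells as well as germ cells. The sums of Sertoli and fibroblast markers given above were also higher. The spermatogonia sum was 0.964 times the control level, and 2.61 times without Id4, which was set apart after its values were seen. A link of these sums with the IGF genes was not tested.

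In the neighbouring Kcnq1 domain Cdkn1c and Ascl2 passed the filter and rose, Ascl2 through the knockout alone. Cdkn1c encodes the cell cycle inhibitor p57. It stood at 1.93 and 1.63 RPKM in the control and at 4.44 and 4.31 in the knockout, a log2 fold change of 0.95 (SE 0.09, adjusted p = 0.0014). Ascl2, a transcription factor of the placenta, went from 0.335 and 0.432 RPKM to 1.30 and 1.39 (log2 fold change 0.76). Kcnq1ot1, the paternal noncoding RNA that silences this domain, was low, with 0.0924 and 0.109 RPKM against 0.294 and 0.390. Phlda2, which limits placental growth, overlapped between groups at 0.481 and 0.231 against 0.578 and 0.243. Slc22a18, a transporter gene of the domain, was lower in both knockout libraries, at 0.315 and 0.329 against 0.113 in each. Reads of Kcnq1ot1 cannot be told apart from those of Kcnq1 on the opposite strand, since the library kit does not mark strand.

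In the Snrpn domain, linked to Prader-Willi and Angelman syndromes in people, the intronless paternal genes Ndn and Mkrn3 rose. Ndn, a MAGE family growth suppressor, had 4.07 and 3.998 RPKM in the control and 8.54 and 8.95 in the knockout, 2.17-fold higher (log2 fold change 0.95, SE 0.08, adjusted p = 0.0014). Mkrn3, a RING finger protein that restrains puberty, had 1.23 RPKM in each control library and 2.38 and 2.18 in the knockout (log2 fold change 0.55). Ube3a, a ubiquitin ligase whose imprint is known from neurons, was at 1.05 and 1.06 RPKM against 1.05 and 1.20. Its difference was 0.05 on the log2 scale (SE 0.08, adjusted p = 0.61), was below 0 without knockout replicate 2 (-0.01), with median centring (-0.15) and with quantile normalization (-0.28, adjusted p = 0.030), and was 0.26 with an equal RPKM sum (adjusted p = 0.036). With the equal sum Ube3a passed the filter only through the knockout and so could only be higher. Exons of Ube3a overlap those of Snhg14 on the opposite strand, and reads there cannot be told apart. Snrpn, a splicing protein gene, was low at 0.122 and 0.140 RPKM against 0.0885 and 0.0888. Magel2 was listed at 0 in both control libraries and at 0.0384 and 0.0444 in the knockout. Those values equal about 2 steps and 1 step, and the 4 values of Peg12, a Frat family gene, equal about 0, 5, 4 and 3 steps.

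On the log2(RPKM + 1) scale the largest rise among the genes that passed the filter was that of Peg10, while as a ratio of means Igf2 rose more (6.80-fold against 5.51-fold). Peg10 is a retrotransposon-derived gene needed for the placenta. Its RPKM was 1.91 and 2.06 in the control and 8.49 and 13.3 in the knockout, a log2 fold change of 1.97 (SE 0.20, adjusted p = 0.0015). Sgce, a sarcoglycan gene that starts beside Peg10, was low at 0.0994 and 0.0899 RPKM against 0.146 and 0.197. Gnas encodes the stimulatory G protein alpha subunit and, from other promoters, further transcripts of either parental origin. It went from 2.21 and 2.30 RPKM to 6.14 and 7.19 (log2 fold change 1.23, SE 0.10, adjusted p = 0.0014). Nespas, the antisense RNA of that locus, had 1.25 and 1.10 RPKM against 0.987 and 0.737 and was not called. Blcap, host gene of Nnat, went from 3.01 and 3.27 RPKM to 4.94 and 5.12 (log2 fold change 0.54). Nnat, a membrane protein gene inside Blcap on the opposite strand, was low, at 0.315 and 0.222 against 1.19 and 0.885.

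Because the knockout concerns a factor that copies DNA methylation, the promoters of several genes are shown, from RefSeq on build GRCm38.p6. Each window runs from 250 bases before to 50 bases after an annotated start, 5′ to 3′ on the gene's strand. Windows were found for 32 of the 38 genes, 45 windows in all. They held a median of 15 CpG sites, against 7 over the 32851 windows of all genes. The hexamer TGCCGC is the core of the sequence that ZFP57, a zinc finger protein which protects imprints, binds when it is methylated. It was searched on both strands (GCGGCA on the other) and stood in 11 of the 45 windows (24.4%), against 11.6% of all windows. By gene it stood in 7 of 20 paternally expressed and 3 of 12 maternally expressed genes, against 13.1% of all genes. The Mest windows that start at 30737800 and 30737803 nearly coincide and both count among the 11. The hexamer itself holds a CpG, and its share was not compared at equal CpG counts. A match is a description of the letters, and methylation was not measured in these libraries. Snrpn and Mest are shown as loci whose germline methylated region covers a promoter, with capitals marking the hexamer. The Snrpn window is chr7:60005150-60005449 on the minus strand (1 of 4 windows, 7 CpG) and the Mest window is chr6:30737800-30738099 on the plus strand (1 of 3, 17 CpG, 2 hexamers).
Snrpn: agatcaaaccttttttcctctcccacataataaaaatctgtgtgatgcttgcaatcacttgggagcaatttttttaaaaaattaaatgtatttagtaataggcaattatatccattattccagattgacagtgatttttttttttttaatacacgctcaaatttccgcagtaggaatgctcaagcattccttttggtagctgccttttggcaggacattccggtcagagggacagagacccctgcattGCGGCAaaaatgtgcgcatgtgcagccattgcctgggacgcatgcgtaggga
Mest: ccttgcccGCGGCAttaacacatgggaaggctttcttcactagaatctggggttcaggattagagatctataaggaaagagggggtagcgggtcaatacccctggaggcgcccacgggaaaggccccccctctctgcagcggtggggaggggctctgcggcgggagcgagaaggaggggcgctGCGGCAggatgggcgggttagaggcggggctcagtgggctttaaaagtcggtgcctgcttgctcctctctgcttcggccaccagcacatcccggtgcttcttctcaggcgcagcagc
Mest, a hydrolase-like protein gene, was low and higher in both knockout libraries, at 0.403 and 0.406 RPKM against 0.779 and 0.858, while Snrpn was lower as given above. Genes with the hexamer in a window were thus found on both sides, but not evenly. Snrpn and Mcts2 lay lower in both knockout libraries, and Snrpn was not called in the fit at 0.1 RPKM. Igf2, Mest, Nap1l5, Nnat, Plagl1, Grb10, Meg3 and Zim1 lay higher, where 46.1% of all symbols lay higher and 21.9% lower. Igf2, which rose, and Mcts2, which fell, each had the hexamer once in a window, while Mirg, which also fell, had it in none. Igf2 is shown at chr7:142661222-142661521 on the minus strand (1 of 4 windows, 14 CpG) and Mcts2 at chr2:152686898-152687197 on the plus strand (25 CpG).
Igf2: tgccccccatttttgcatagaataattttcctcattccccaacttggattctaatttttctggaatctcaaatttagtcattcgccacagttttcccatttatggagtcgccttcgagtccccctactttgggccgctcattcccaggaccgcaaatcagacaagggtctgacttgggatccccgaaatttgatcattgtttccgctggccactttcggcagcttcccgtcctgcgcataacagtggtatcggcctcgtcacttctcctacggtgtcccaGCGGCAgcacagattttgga
Mcts2: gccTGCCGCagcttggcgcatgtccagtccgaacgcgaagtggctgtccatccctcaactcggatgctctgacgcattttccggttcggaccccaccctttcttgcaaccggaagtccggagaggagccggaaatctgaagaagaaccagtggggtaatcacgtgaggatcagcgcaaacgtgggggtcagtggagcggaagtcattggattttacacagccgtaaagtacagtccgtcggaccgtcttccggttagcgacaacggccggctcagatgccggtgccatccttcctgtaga

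Peg3 and Usp29 start back to back from a shared promoter region and moved in opposite directions. Peg3, a zinc finger protein of growth and nurturing behaviour, had 0.347 and 0.414 RPKM in the control and 1.51 and 2.10 in the knockout. Its log2 fold change was 1.01 (SE 0.12, limma adjusted p = 0.0017), with a mean 4.74-fold higher. Usp29, a ubiquitin protease gene of the same parental expression, was low, with 0.247 and 0.229 RPKM in the control and 0.0998 and 0.0701 in the knockout, a mean 2.80-fold lower. The groups did not overlap for either gene, where 46.1% of all symbols lay higher in both knockout libraries and 21.9% lower. Peg3 passed the filter at 1 RPKM only through the knockout, so in that fit it could only be higher. Usp29 passed the filter at 0.1 RPKM, used for the low genes below, only through the control and could only be lower there. Exons of Usp29 overlap those of Zim3 on the opposite strand, and reads there cannot be told apart, since the kit does not mark strand. Zim1, a maternally expressed zinc finger gene nearby, was low, at 0.00812 and 0.0185 against 0.0718 and 0.0542. The Peg3 window, chr7:6730370-6730669 on the minus strand, shares 263 of its 300 bases with the Usp29 window on the plus strand, chr7:6730333-6730632. It held 13 CpG sites and no TGCCGC in these letters, and is shown because both genes start from it.
Peg3: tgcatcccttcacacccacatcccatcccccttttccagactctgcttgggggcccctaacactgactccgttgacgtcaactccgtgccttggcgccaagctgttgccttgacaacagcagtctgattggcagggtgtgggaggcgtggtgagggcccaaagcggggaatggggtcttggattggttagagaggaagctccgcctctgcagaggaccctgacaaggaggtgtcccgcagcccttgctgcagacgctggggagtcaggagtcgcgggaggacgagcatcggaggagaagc

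In their values per library, genes of the Dlk1-Dio3 cluster on chromosome 12 were likewise split. Dlk1, a paternally expressed ligand related to Delta, had 0.529 and 0.431 RPKM in the control and 1.42 and 2.57 in the knockout (log2 fold change 0.99, SE 0.19, adjusted p = 0.0070). Dlk1 passed the filter only through the knockout and so could only be higher. Meg3, the first of the maternally expressed noncoding RNAs, was low, at 0.176 and 0.334 against 0.982 and 1.40, a mean 4.66-fold higher. Rian, a host of small nucleolar RNAs further along, went from 0.0640 and 0.0687 RPKM to 0.161 and 0.177. In the fit at 0.1 RPKM given below, Rian also passed only through the knockout. Mirg, the host of microRNAs at the far end of the same maternal strand, fell from 1.03 and 1.14 RPKM to 0.285 and 0.294. Its mean was 3.74-fold lower (log2 fold change -0.69, SE 0.07, adjusted p = 0.0015), and no value overlapped. Mirg passed the filter only through the control and so could only be lower, and with an equal RPKM sum it no longer passed. Rtl1, a paternally expressed retrotransposon-derived gene, was listed at 0 and 0.0149 RPKM in the control and at 0.0634 and 0.0450 in the knockout. Dio3, a thyroid hormone deiodinase, held about 2, 0, 3 and 2 steps.

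Of 53 microRNA rows from imprinted clusters, 40 were at 0 in all 4 libraries and 2 passed the filter. Mir410, which lies in Mirg, fell from 5.06 and 4.17 RPKM to 0.554 and 0.228, and passed the filter only through the control. Over its hairpin of 81 bases, however, these values amount to about 2.4, 4.3, 0.5 and 0.1 steps. A poly(A) library counts the host transcript there and not the mature microRNA. Its mature arms are given with the seed, bases 2 to 8, in capitals, as those of the only microRNA row of these clusters that was called.
miR-410-3p: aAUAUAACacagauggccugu
miR-410-5p: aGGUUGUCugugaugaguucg

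**Figure D3:**
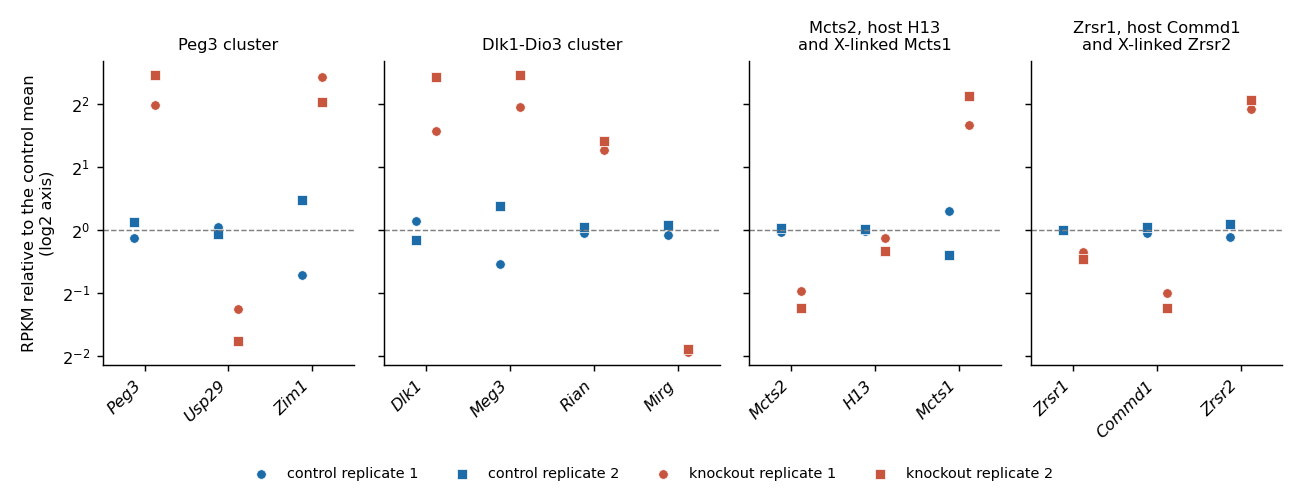
RPKM of each library divided by the gene's control mean (log2 axis), with control libraries in blue and knockout libraries in red. Usp29 lies below and Peg3 above the control, Mirg lies below while Dlk1, Meg3 and Rian lie above, and Mcts2 and Zrsr1 lie below while their X-linked parent genes lie above.

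Among the 8 paternally expressed genes that passed the filter, the 2 that fell, Mcts2 and Zrsr1, are retrogenes, copies of X-linked genes inserted in introns of autosomal hosts. Mcts2, a copy of the translation factor gene Mcts1 in the host H13, had 30.2 and 31.5 RPKM in the control and 15.7 and 13.1 in the knockout. Its log2 fold change was -1.05 (SE 0.12, limma adjusted p = 0.0017), with a mean 2.14-fold lower. H13, a signal peptide peptidase gene read on the same strand, had 2.47 and 2.52 RPKM against 2.28 and 1.99 and was not called (adjusted p = 0.14). Mcts1, on the X chromosome, was below the filter and higher, at 0.246 and 0.152 against 0.630 and 0.865. Zrsr1, a copy of the splicing factor gene Zrsr2 in the host Commd1, had 6.11 and 6.13 RPKM in the control and 4.82 and 4.47 in the knockout. The change of -0.33 (SE 0.08, adjusted p = 0.015) was no longer called without control replicate 1 (adjusted p = 0.10) or control replicate 2 (adjusted p = 0.10), and was 0.02 with an equal RPKM sum. Commd1, read on the opposite strand with exons that overlap Zrsr1, fell as well, from 1.73 and 1.86 RPKM to 0.900 and 0.761 (log2 fold change -0.61). It passed the filter only through the control. Zrsr2 on the X chromosome rose from 0.507 and 0.583 RPKM to 2.06 and 2.27 (log2 fold change 1.04) and passed the filter only through the knockout. No exact run of 50 bases, the read length, was shared between annotated transcripts of Mcts2 and Mcts1 or of Zrsr1 and Zrsr2. Nap1l5, a nucleosome assembly gene in an intron of Herc3, was low and moved the other way, from about 0 and 2 steps to 7 and 3, with 0 and 0.0826 RPKM in the control and 0.332 and 0.329 in the knockout.

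The 23 low genes were tested only in the alternative fit, which kept genes at 0.1 RPKM in at least 2 libraries and used log2(RPKM + 0.1). There 19 of the 23 could be tested, and 12 rose, 2 fell and 5 were not called, while 47.0% of the 14887 genes in that fit rose and 23.2% fell. Rian, Airn, Plagl1, Nap1l5 and Sgce were under 0.1 RPKM in both control libraries and passed only through the knockout, so 4 of the 12 rises could go only that way. The paternally expressed genes that rose were Nap1l5, Nnat, Inpp5f, Impact, Kcnq1ot1, Mest, Plagl1 and Airn, and the maternally expressed ones were Meg3, Igf2r, Rian and Grb10. Their means were 1.60-fold to 8.003-fold higher, with adjusted p from 0.0031 to 0.032. Usp29 and Slc22a18 fell by 0.87 and 0.99 on that log2 scale. Usp29 and Snrpn were under 0.1 RPKM in both knockout libraries and passed only through the control, so they could only be lower. Phlda2, Dio3, Snrpn, Peg12 and Sgce were not called, and Sgce came nearest, with 0.47 (adjusted p = 0.057). Rtl1, Magel2, Zim1 and Rasgrf1 stayed under 0.1 RPKM. Rasgrf1, a Ras exchange factor with a paternally methylated control region, had 0.00292 and 0.00449 RPKM against 0.00898 and 0.00442.

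Several of the low genes that rose have known roles in somatic tissues. Impact, an inhibitor of the stress kinase GCN2, had 0.224 and 0.242 RPKM in the control and 0.702 and 0.887 in the knockout. Inpp5f, a phosphoinositide phosphatase gene with an imprinted shorter transcript, had 0.132 and 0.116 against 0.448 and 0.586. Plagl1, a zinc finger regulator of other imprinted genes, had 0.0713 and 0.0521 against 0.160 and 0.224. Airn, the noncoding RNA that silences Igf2r, had 0.0785 and 0.0803 against 0.164 and 0.159, so both Airn and Igf2r were higher, and their overlapping reads cannot be assigned to a strand. In each of these genes the groups did not overlap.

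**Figure D4:**
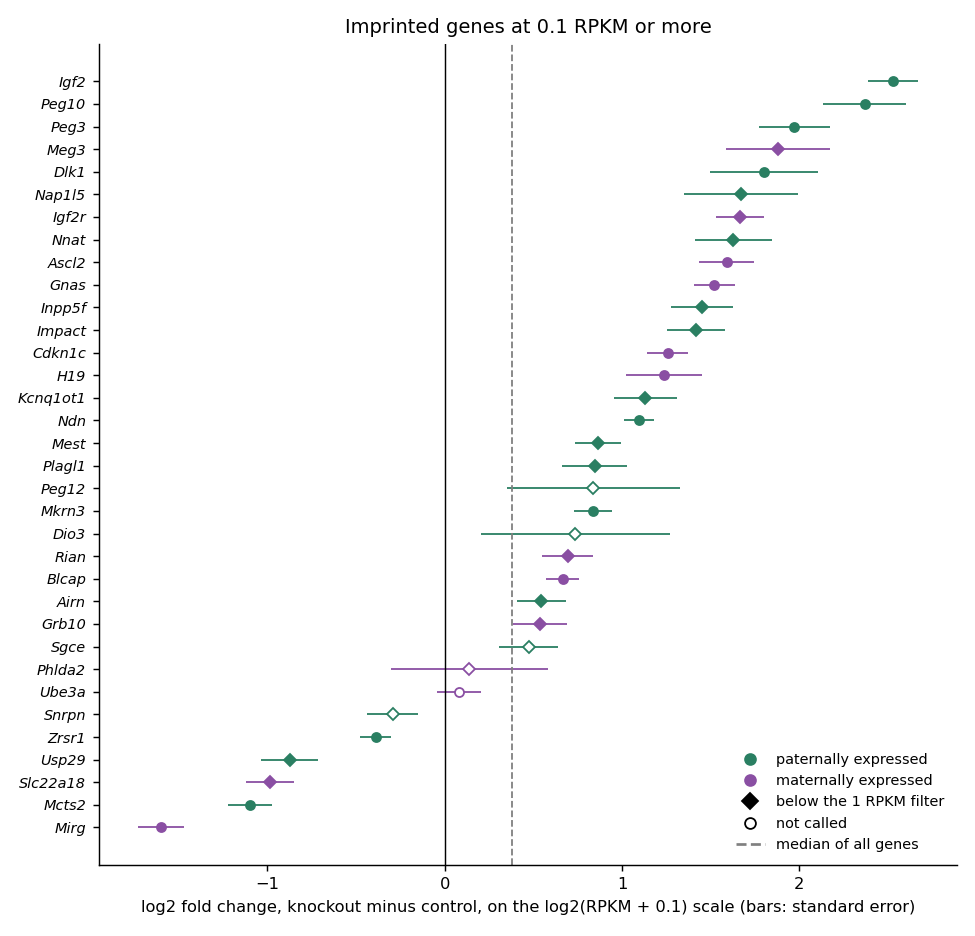
Log2 fold change (knockout minus control, bars for the standard error) of the 34 imprinted genes at 0.1 RPKM or more on the log2(RPKM + 0.1) scale, green for paternally and purple for maternally expressed genes, with open symbols for genes not called and diamonds for those below 1 RPKM. Igf2 and Peg10 lie at the upper end and Mirg, Mcts2, Slc22a18 and Usp29 at the lower end, with the median of all genes at 0.38 (dashed).

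**Figure D5:**
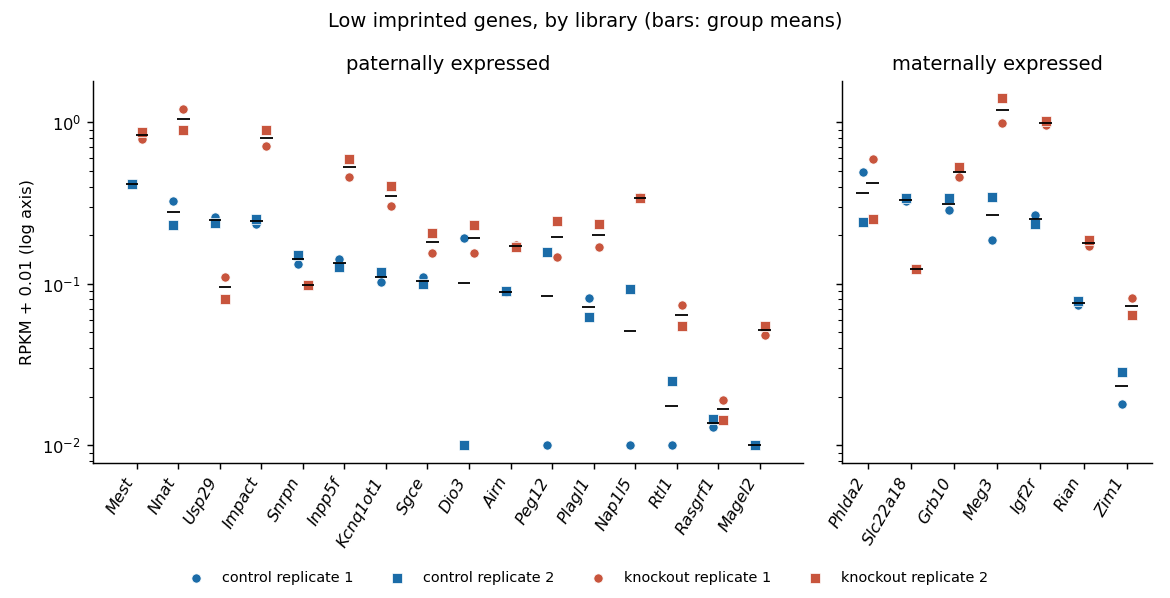
RPKM + 0.01 (log axis) of the 23 low imprinted genes by library, control in blue and knockout in red, with bars at group means. Points at the bottom of the axis are listed at 0.

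Genes that set, keep or erase imprints changed in both directions. Of 25 listed, 14 passed the filter, of which 9 rose, 3 fell and 2 were not called, with a median of 0.39 against 0.14 over all genes. Kdm1b, Arid4b and Naa10 passed only through the knockout, and of the other 11, 6 rose, 3 fell and 2 were not called, where 43.3% of all genes tested rose and 30.5% fell. The falls were those of Uhrf1, of Mbd3, a subunit of the NuRD complex (-0.49), and of Zfp42, a zinc finger protein of pluripotent cells and spermatocytes (-0.43). Hells, a chromatin remodeller that supports methylation, rose from 1.72 and 1.89 RPKM to 6.21 and 6.76. Kdm1b, a histone demethylase needed for imprints of the egg, rose from 0.289 and 0.330 to 1.20 and 1.17. Setdb1, the H3K9 methyltransferase recruited by TRIM28, rose by 0.68 on the log2 scale, and Dnmt1 by 0.55. Trim28, the corepressor that ZFP57 recruits, was at 91.6 and 90.2 RPKM against 95.4 and 90.9 and was not called (adjusted p = 0.80). Zfp57 was low, at 0.689 and 0.522 against 0.477 and 0.217.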

How the data were processed

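Poly(A) RNA libraries (NEBNext kits, 50-bp pairs, per the labels' protocols) were deposited by the authors as RPKM values, 1 column per library, per the file headers. Bowtie2 and build mm9 stand in the submitters' processing notes. Counter and annotation: not given in the sources used here. Of 24444 rows, 27 with a date for a symbol and 29 repeats of a symbol (the row with the highest mean kept) were left out. Low RPKM values times RefSeq gene span lay within 0.05 of a whole step for 50.1% to 54.5% of values, where 10% would if evenly spread. As whole reads were not recovered for the rest, no count test was run.

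The filter kept genes at 1 RPKM in 2 or more libraries, which were tested by limma 3.58.1 (R 4.3.3) with a mean-variance trend on log2(RPKM + 1), two-sided, with Benjamini-Hochberg adjustment over all 9099 genes and a threshold of 0.05. The scale understates changes of low genes, and folds are ratios of mean RPKM. No permutation test was used, as the smallest exact p with 2 libraries a group is 0.333. The fit was tested on simulated data. The members, lists and tests were chosen with earlier results of these data known. All 38 members are accounted for, and other lists are named by their called members, up to 4 each, plus rare calls. H13, Mcts1, Nespas, Trim28, Zfp57, Trappc9, Arid4b, Naa10, Id4, Hspa2, Sycp3, Asb4, Pon2, Pon3, Ppp1r9a and Casd1 were named beyond that rule after their values were seen. Alternatives were 2 pseudocounts, 3 filters, 3 scalings, limma without the trend, a replicate block and each library left out. Overlaps and shared 50-base runs used GENCODE M21. Promoters and microRNAs came from RefSeq (GRCm38.p6), and no position was joined with the authors' mm9 data.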

Additional observations from a re-analysis of the deposited data

How the results depend on the processing

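The counts of imprinted genes called depended mainly on the filter. With no filter 21 of 38 were higher and 6 lower (paternally expressed 13 and 4, maternally expressed 8 and 2), where 27.8% of all genes were higher and 12.8% lower. At 5 RPKM 3 of 5 were higher (2 paternally, 1 maternally expressed) and 2 lower, with 0 maternally expressed genes lower. There 31.1% of all genes tested were higher and 47.0% lower. Ndn, Peg10 and Gnas passed 5 RPKM only through the knockout and Zrsr1 only through the control. At 0.1 RPKM with a pseudocount of 0.1 there were 23 higher and 5 lower of 34 (14 paternally expressed higher, 9 and 2 maternally expressed), against 47.0% and 23.2% of all genes tested. With an equal RPKM sum 1 gene was lower (1 paternally and 0 maternally expressed) and 8 maternally expressed genes were higher, and with quantile normalization 2 maternally expressed genes were lower. The filter followed the equal-sum scaling, so the imprinted genes that the scaling brought in passed only through the knockout and could only be higher. Over all genes tested, 60.5% were higher and 17.8% lower with the equal sum, and 34.7% and 33.4% with quantile normalization. Across the libraries left out in turn, 11 genes were higher each time, 2 to 3 were lower, and 1 to 2 of those were paternally expressed. Zrsr1 turned to 0.0163 with an equal RPKM sum, and Ube3a to -0.15 with median centring, -0.28 with quantile normalization and, across the libraries left out in turn, to between -0.0058 (without knockout replicate 2) and 0.0979. H19 and Dlk1 were no longer called with no filter (limma adjusted p = 0.058 and 0.068). With the replicate block 11 genes were higher and 3 lower and all 14 calls were kept, where 42.5% of all genes tested were higher and 29.9% lower. Replicate numbers were shared without a stated pairing, and deviations of same-numbered libraries correlated at 0.109 across genes. Uhrf1 stayed lower and called in each alternative where it passed the filter. Of the other named genes, Ube3a was called higher with an equal RPKM sum (0.26), and Zrsr1 lost its call without either control library. Ube3a was called lower, in contrast, with quantile normalization (-0.28). With the equal sum Ube3a passed the filter only through the knockout and could only be higher. The shallowest library, knockout replicate 2, limits the low genes, of which 4 had fewer than 10 steps in every library.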

Other observations

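Hosts and neighbours of imprinted genes, many of them imprinted in some tissues, changed in both directions. Of the 44 found, 11 passed the filter, of which 4 rose, 2 fell and 5 were not called, with a median log2 fold change of 0.05, where 43.3% of all genes tested rose, 30.5% fell and the median was 0.14. Cd81, a tetraspanin gene at the edge of the Kcnq1 domain, rose from 1.24 and 1.38 RPKM to 4.72 and 6.36, and Tssc4, its neighbour there, fell from 21.9 and 22.1 to 17.7 and 14.8. Jade1, a subunit of a histone acetyltransferase complex, rose from 0.327 and 0.407 RPKM to 1.86 and 2.54, Herc2, a ubiquitin ligase gene, from 0.545 and 0.491 to 1.25 and 1.43, and Peg13, a paternally expressed noncoding RNA inside Trappc9, from 0.246 and 0.277 to 1.08 and 1.01. Jade1, Herc2 and Peg13 were below 1 RPKM in both control libraries and could only be higher. Commd1, the other fall, was below 1 RPKM in both knockout libraries and could only be lower. Trappc9 itself was at 0.222 RPKM in each control library and at 0.221 and 0.192 in the knockout.

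The low neighbours of Peg10 were split. Asb4 and Pon2 were called lower in the fit at 0.1 RPKM, and Ppp1r9a and Casd1 were called higher. Asb4, which codes for an ankyrin repeat protein, had 0.643 and 0.623 RPKM against 0.177 and 0.0706, and Pon2, of the paraoxonase family, had 0.926 RPKM in each control library against 0.348 and 0.261. Ppp1r9a, which binds protein phosphatase and actin, had 0.0969 and 0.0985 RPKM against 0.328 and 0.473, and Casd1, a sialic acid acetyltransferase gene, had 0.370 and 0.378 against 0.631 and 0.683. Pon3, also of the paraoxonase family, was under 0.1 RPKM in all 4 libraries, with a mean 4.36-fold higher. Ppp1r9a was under 0.1 RPKM in both control libraries. These genes were named after their values were seen.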
